A study of Homo sapiens with 2 samples.

Results

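The DEAD and DEAH box genes encode the largest group of RNA helicases in human cells, enzymes that use ATP to unwind short RNA duplexes or to strip proteins from RNA. They are named after the amino acids of a conserved ATPase motif. Nearly every step in the life of an mRNA or rRNA uses at least 1 of them, from transcription and splicing to export, translation and decay, and many work in the nucleolus on pre-ribosomes. YBX1 encodes YB-1, a cold shock domain protein that packages mRNA.

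Cells of the line called 231, a breast line per the labels, were transfected against YBX1 (siYBX1) or with a control called siNC, and RNA for sequencing was taken 48 h later. The reagent against YBX1 is an siRNA in the labels and a Smart Silencer in the design text, and both cultures were kept in L15 medium with FBS. Each group was 1 library, so no difference below has a replicate check and no test across samples could be made. Genes were taken as members when their symbol consisted of DDX or DHX, a number and at most 1 further letter, with DDX58, DHX58 and the Y-linked DDX3Y left out. This gave 49 of the 13219 genes listed in either table, 34 with a DDX and 15 with a DHX symbol.

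Levels are in FPKM, which corrects for transcript length and for library size, so different genes can be set side by side. No counts were used, depth is unknown, and values carry no counting interval. YBX1 itself was at 38.1 FPKM with siYBX1 against 649 FPKM with siNC, 17.0-fold lower. The 10 markers taken for the line mix mesenchymal genes with epithelial ones that such lines can carry. Of these 10, 8 were listed with siYBX1 and 9 with siNC, with sums of 513 FPKM with siYBX1 and 603 FPKM with siNC. VIM, CD44 and EGFR were above 33 FPKM in both libraries, CDH2 was in neither table, and ZEB1 was at 4.74 FPKM with siYBX1 and 15.1 FPKM with siNC (log2 difference -1.49). The epithelial keratins KRT8 (-1.40), KRT19 (-0.87) and KRT18 (-0.16) and the adhesion gene EPCAM (-0.60) were also listed lower with siYBX1. Of 5 luminal genes, ESR1 and PGR were in neither table, while ERBB2 was at 5.74 FPKM with siYBX1 and 5.44 FPKM with siNC and GATA3 at 2.14 FPKM with siYBX1 and 2.34 FPKM with siNC. Markers of other cell types differed between the libraries. Listing itself was uneven, as 1541 genes of the whole series were listed only with siNC and 202 only with siYBX1. Of 9 hepatocyte genes, 1 was listed with siYBX1 and 8 with siNC, with summed levels of 39.96 FPKM with siYBX1 and 54.2 FPKM with siNC. In the siYBX1 library the whole sum was SERPINA1, which stood at 17.0 FPKM with siNC (log2 difference 1.19). The siNC library also held ALB at 10.4 FPKM and FGB at 12.0 FPKM. With siNC, APOA2 and APOB were above 1 FPKM and APOA1, TF and AHSG under it. Of 6 fibroblast genes 2 were listed in each library, with sums of 5.88 FPKM with siYBX1 and 1.21 FPKM with siNC. Of 4 leukocyte genes 0 were listed with siYBX1 and 1 with siNC (0.484 FPKM), and 0 of 3 endothelial genes were listed in either. The part of these genes in the results below was not tested. In a bulk sample, fewer cells of a type and less RNA per cell cannot be told apart.

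Most of the helicase genes, like most of all genes compared, lay within 2-fold of the control. All 49 were listed with siYBX1 and 48 with siNC, none of them at 0. All 48 genes in both tables had a mean of at least 1 FPKM and were compared by their difference in log2(FPKM + 1), siYBX1 minus siNC, together with all 10548 genes that met the same conditions. A difference of at least 1 (2-fold on this scale) counted as higher or lower. By this measure 1 helicase gene, DDX47, was higher, against 7.2% of all compared genes, and 3, DDX59, DDX10 and DDX20, were lower, against 5.62%. As shares of the 48 these are 2.08% higher and 6.25% lower, so the count of lower genes is near the background and that of higher genes below it. The other 44 lay within 2-fold, and 33 of the 48 differed by less than 0.5 (68.8%, against 58.7% of all compared genes).

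The differences of the family were narrowly spread and centred a little below zero. Their median was -0.14, against 0.02 for all compared genes, and 33 of 48 were below 0 (68.8%), against 48.97% of all compared genes. The middle 50% ran from -0.44 to 0.05 in the helicase genes and from -0.39 to 0.43 in all compared genes. The helicase genes also had higher levels, with a median of 13.4 FPKM against 7.07 FPKM, and no set matched for level was compared. When each library was brought to an equal total FPKM, the medians became -0.28 for the family and -0.10 for all compared genes, and the split of all called genes changed to 570 higher and 822 lower, against 759 higher and 593 lower as deposited. The family's median minus that of all compared genes ran from -0.18 to -0.11 over the settings tried.

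**Figure D1:**
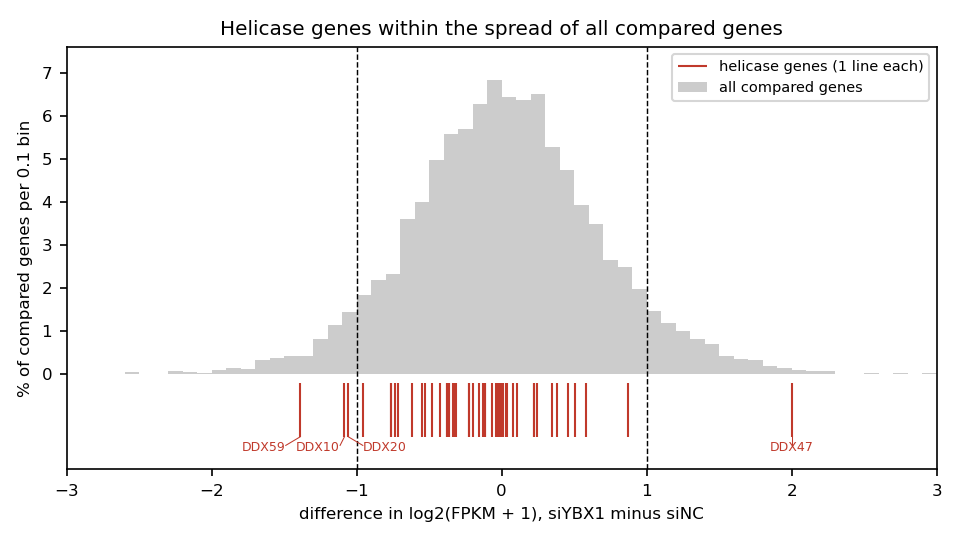
Differences in log2(FPKM + 1), siYBX1 minus siNC, for 10548 compared genes (grey bars, percent of genes in each bin 0.1 wide, values beyond 3 not shown) and for 48 helicase genes (red lines below the axis). Dashed lines mark 2-fold; DDX47 lies beyond the right one, and DDX59, DDX10 and DDX20 beyond the left one.

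The genes are expressed at middling to high levels. Their median of the mean level was 13.4 FPKM, against 7.07 FPKM for all compared genes, and 27 of 48 had a mean of at least 10 FPKM (56.2%, against 38.3% of all compared genes). DDX21 was the highest in each library, at 105 FPKM with siYBX1 and 88.6 FPKM with siNC. DDX5, DHX9 and DDX1 followed it in the siYBX1 library. In the siNC library DDX5 and DHX9 also held ranks 2 and 3, DDX1 rank 4, and DDX27 and DDX46 ranks 5 and 6. DDX53, an intronless gene known for expression in testis and tumours, was the lowest, at 0.918 FPKM with siYBX1, and was the only member not listed in the siNC library. Over the whole series, 202 genes were listed only with siYBX1 and 1541 only with siNC. The other germ line genes considered, DDX4, DDX25 and DDX43, were listed in neither library and so are not among the members.

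**Figure D2:**
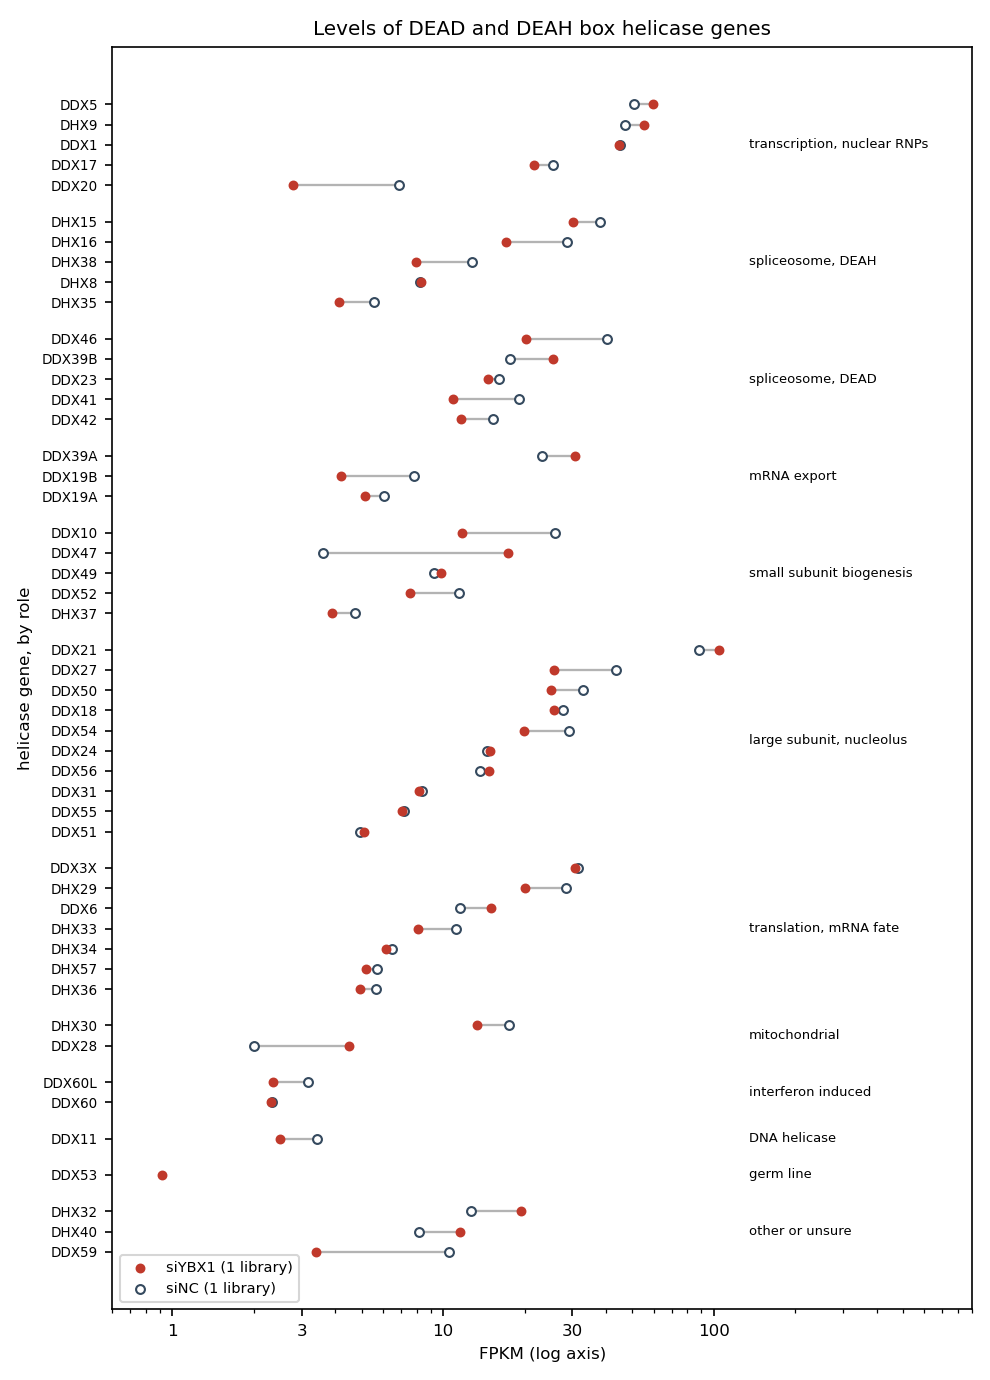
Level in FPKM (log axis) of each of the 49 helicase genes in the siYBX1 library (filled red) and the siNC library (open), 1 library each, joined by a grey line and sorted by role, then by mean level. DDX39B is drawn with the spliceosome but also belongs to mRNA export. The longest lines are those of DDX47, DDX59, DDX20, DDX28 and DDX10.

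The 4 genes beyond 2-fold do different work. DDX59, a little studied helicase whose loss in people is linked to an orofaciodigital syndrome, stood at 3.40 FPKM with siYBX1 against 10.5 FPKM with siNC, 3.10-fold lower (log2 difference -1.39). Only 1.83% of all compared genes ranked below it. DDX10, whose yeast counterpart Dbp4 acts on the U14 snoRNA in early pre-ribosomes, stood at 11.7 FPKM with siYBX1 against 25.9 FPKM with siNC, 2.22-fold lower (-1.08). DDX20, also called Gemin3, is the helicase of the SMN complex that builds spliceosomal snRNPs, and stood at 2.79 FPKM with siYBX1 against 6.90 FPKM with siNC, 2.47-fold lower (-1.06). At levels as low as those of DDX20, the pseudocount of 1 weighs on the difference. All 3 genes were lower with siYBX1 by more than 2-fold also as a plain ratio.

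DDX47 was the one member called higher, and its value is uncertain. Its yeast counterpart Rrp3 acts in the first cleavages that lead to 18S rRNA. It stood at 17.4 FPKM with siYBX1 against 3.59 FPKM with siNC, 4.83-fold higher (2.0). In the GENCODE 29 annotation it overlaps APOLD1 on the same strand, and APOLD1 went the other way, at 1.173 FPKM with siYBX1 against 7.58 FPKM with siNC. Summed, the pair came to 18.5 FPKM with siYBX1 against 11.2 FPKM with siNC, a difference of 0.68, which no longer reaches 2-fold. FPKM of genes of different length are not additive in reads, so the sum is only a guide. In the sources used here, no rule is given for reads that overlapping genes share.

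The promoters of these 4 genes are shown because YB-1 was named for binding the Y box, a promoter element that holds an inverted CCAAT, so the letters let a reader see where that core stands. Each line gives the 250 bases before the gene's first start listed by RefSeq on GRCh38.p14, a later build than the GRCh37 named in the submitters' processing notes. Capitals mark CCAAT or its reverse complement ATTGG. The windows are chr1:200669908-200670157 on the minus strand for DDX59, chr11:108664819-108665068 for DDX10, chr1:111755651-111755900 for DDX20 and chr12:12813096-12813345 for DDX47, the last 3 on the plus strand.
DDX59: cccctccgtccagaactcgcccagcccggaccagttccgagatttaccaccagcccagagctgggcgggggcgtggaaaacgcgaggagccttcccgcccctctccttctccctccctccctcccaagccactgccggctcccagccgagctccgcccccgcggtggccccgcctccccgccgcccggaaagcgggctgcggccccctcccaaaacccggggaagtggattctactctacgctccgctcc
DDX10: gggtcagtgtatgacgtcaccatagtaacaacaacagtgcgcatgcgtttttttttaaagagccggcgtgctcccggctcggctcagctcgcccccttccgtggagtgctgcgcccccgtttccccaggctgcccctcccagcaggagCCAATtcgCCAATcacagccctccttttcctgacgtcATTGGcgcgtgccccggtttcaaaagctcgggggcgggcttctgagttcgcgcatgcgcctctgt
DDX20: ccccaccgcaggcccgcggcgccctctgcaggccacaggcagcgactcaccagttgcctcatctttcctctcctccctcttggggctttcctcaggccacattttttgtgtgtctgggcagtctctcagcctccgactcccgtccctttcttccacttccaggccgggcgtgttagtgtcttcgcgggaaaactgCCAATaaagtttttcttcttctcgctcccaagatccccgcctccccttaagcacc
DDX47: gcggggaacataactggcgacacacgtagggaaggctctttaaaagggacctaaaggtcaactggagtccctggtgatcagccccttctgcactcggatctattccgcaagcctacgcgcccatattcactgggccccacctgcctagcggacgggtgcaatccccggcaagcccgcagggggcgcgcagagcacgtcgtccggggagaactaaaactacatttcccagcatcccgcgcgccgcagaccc

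The DDX10 window holds 3 CCAAT cores on either strand, starting 102, 94 and 65 bases before the start, and the DDX20 window holds 1, 55 bases before it. The windows of DDX59 and DDX47 hold none. Of the 45 members with a RefSeq promoter, 20 hold CCAAT on either strand (44.4%), against 35.7% of the promoters of compared genes and 33.0% of all promoters of the same length. CCGGAAG, a core of sites for ETS family factors, is in 15 (33.3%), against 17.7% of compared genes and 8.82% of all. The GC box GGGCGG is in 25 (55.6%), against 70.0% of compared genes and 42.3% of all. The motifs were chosen with these shares in view, both strands were searched, and matches of CCGGAAG and GGGCGG can share their end letters. A match is only a run of letters, not a binding site.

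DDX5, DDX17 and DHX9, among the best studied members, differed little. DDX5 and DDX17 are paralogs that act as transcription coregulators and in the Drosha complex that cuts primary microRNAs. DDX5 stood at 59.5 FPKM with siYBX1 and 50.8 FPKM with siNC (0.22), and DDX17 at 21.7 FPKM with siYBX1 and 25.5 FPKM with siNC (-0.22). DHX9, or RNA helicase A, unwinds long double-stranded RNA and R-loops, and stood at 55.2 FPKM with siYBX1 and 47.1 FPKM with siNC (0.22). DDX1, the helicase of the tRNA ligase complex, was at 44.8 FPKM with siYBX1 and 45.1 FPKM with siNC (-0.01). In this role group of 5 nuclear ribonucleoprotein and coregulator genes, DDX20 alone passed 2-fold, and the median was -0.01.

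Most spliceosomal helicases were listed lower in the siYBX1 library, none of them by 2-fold. The median was -0.36 in both the DEAH and the DEAD box group. Without genes that overlap others on either strand it was -0.13 in the DEAD box group, which left only DDX23, DDX39B and DDX41. In the DEAH box group, DHX8, DHX16 and DHX38 overlap listed genes on the other strand. Only DHX15 and DHX35 remained there, too few for a median. In each group 4 of 5 genes had a negative difference, 80% against 68.8% of the family and 48.97% of all compared genes. The largest belonged to DDX46, the counterpart of yeast Prp5 that proofreads branch site pairing by the U2 snRNP, at 20.3 FPKM with siYBX1 against 40.2 FPKM with siNC (-0.95). DDX46 overlaps C5orf24 on the same strand, which was at 1.71 FPKM with siYBX1 against 5.89 FPKM with siNC, and the sum of both came to 21.97 FPKM with siYBX1 against 46.1 FPKM with siNC, a difference of -1.04 that passes 2-fold.

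Helicases of the catalytic steps followed in size. DDX41, found in the catalytic spliceosome and altered in inherited myeloid cancer, was at 10.9 FPKM with siYBX1 and 19.1 FPKM with siNC (-0.76). DHX16, the human Prp2 that activates the spliceosome, was at 17.1 FPKM with siYBX1 and 28.6 FPKM with siNC (-0.71). DHX38, the human Prp16 that remodels it between the catalytic steps, was at 7.96 FPKM with siYBX1 and 12.8 FPKM with siNC (-0.62). DHX8, the human Prp22 that releases the spliced mRNA, did not go with them, at 8.31 FPKM with siYBX1 and 8.25 FPKM with siNC (0.01). DHX15, the human Prp43 that takes the lariat spliceosome apart, was at 30.1 FPKM with siYBX1 and 37.96 FPKM with siNC (-0.32). DHX35, a component of catalytic spliceosomes (-0.36), DDX42, which binds the U2 snRNP protein SF3B1 (-0.36), and DDX23, the U5 snRNP helicase (-0.13), were also below the control.

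DDX39B, also called UAP56, was the exception on the DEAD box side. It recruits the U2 snRNP and is also the helicase of the TREX export complex, and stood at 25.5 FPKM with siYBX1 and 17.6 FPKM with siNC (0.51). Its close paralog DDX39A was likewise above the control, at 30.7 FPKM with siYBX1 and 23.3 FPKM with siNC (0.38). DDX19A and DDX19B, near-identical helicases that strip export factors from mRNA at the nuclear pore, were below it. DDX19B stood at 4.19 FPKM with siYBX1 and 7.81 FPKM with siNC (-0.76) and DDX19A at 5.14 FPKM with siYBX1 and 6.06 FPKM with siNC (-0.20). Reads of this near-identical pair can be exchanged, so single values are uncertain, and their sums were 9.34 FPKM with siYBX1 and 13.9 FPKM with siNC. The median of the 4 export helicases was 0.09, and its sign changed between settings (-0.07 to 0.11). The lowest value came where the sum of DDX19A and DDX19B was entered for both genes. At the same total FPKM the median was -0.04. A further listed gene, AC012184.2, overlaps DDX19A and DDX19B on the same strand.

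Helicases of small subunit biogenesis held the members farthest apart as listed, which rests on the uncertain value of DDX47 (0.68 when summed with APOLD1). Of 5 genes, DDX47 was higher and DDX10 lower, both described above. DDX52, whose yeast counterpart Rok1 works on 18S pre-rRNA, was at 7.53 FPKM with siYBX1 and 11.5 FPKM with siNC (-0.55). DHX37, the counterpart of yeast Dhr1 that displaces the U3 snoRNA, was at 3.901 FPKM with siYBX1 and 4.73 FPKM with siNC (-0.22), and DDX49, the counterpart of yeast Dbp8, at 9.85 FPKM with siYBX1 and 9.26 FPKM with siNC (0.08). The median of the group was -0.22, and -0.55 without genes that overlap others on either strand, which left only DDX10, DDX52 and DHX37.

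The 10 genes of the large subunit and nucleolus all lay within 2-fold, with a median of -0.03. DDX27, the counterpart of yeast Drs1, had the largest difference, at 25.8 FPKM with siYBX1 and 43.6 FPKM with siNC (-0.74), followed by DDX54, the counterpart of yeast Dbp10, at 19.9 FPKM with siYBX1 and 29.1 FPKM with siNC (-0.53). DDX21 and DDX50, nucleolar paralogs encoded side by side, went opposite ways by small amounts. DDX21 differed by 0.24, and DDX50 stood at 25.05 FPKM with siYBX1 and 32.8 FPKM with siNC (-0.38). The others have yeast counterparts that act on 60S precursors, and differed very little, namely DDX18 or Has1 (-0.11), DDX56 or Dbp9 (0.10), DDX51 or Dbp6 (0.04), DDX24 or Mak5 (0.03), DDX31 or Dbp7 (-0.03) and DDX55 or Spb4 (-0.02).

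Cytoplasmic helicases of translation and mRNA decay were also within 2-fold, with a median of -0.12 over 7 genes. Of these 7, 6 were negative (85.7%, against 68.8% of the family and 48.97% of all compared genes). DHX29, which helps the 43S complex scan structured leaders, was at 20.1 FPKM with siYBX1 and 28.5 FPKM with siNC (-0.48). DHX33 was at 8.08 FPKM with siYBX1 and 11.2 FPKM with siNC (-0.42), and it overlaps the far more abundant C1QBP on the same strand. Summed, DHX33 and C1QBP differed by -0.08. DDX6, which represses translation and joins the decapping machinery, was the only positive one, at 15.0 FPKM with siYBX1 and 11.5 FPKM with siNC (0.35). DDX3X, which aids translation of mRNAs with structured leaders, was almost level, at 30.8 FPKM with siYBX1 and 31.6 FPKM with siNC (-0.04). DHX36, which opens G-quadruplexes, stood at 4.94 FPKM with siYBX1 and 5.63 FPKM with siNC (-0.16), DHX57 at 5.19 FPKM with siYBX1 and 5.71 FPKM with siNC (-0.12), and DHX34, a factor of nonsense-mediated decay, at 6.14 FPKM with siYBX1 and 6.47 FPKM with siNC (-0.06).

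The remaining members were few per role. DDX28, needed to assemble the large subunit of the mitochondrial ribosome, had the second highest difference in the family, at 4.48 FPKM with siYBX1 and 1.999 FPKM with siNC. Its ratio of 2.24 exceeds 2, but its difference of 0.87 in log2(FPKM + 1) does not reach the line, since the pseudocount weighs on low genes. It overlaps DUS2 on the other strand. DHX30, which binds mitochondrial rRNA and mRNA, was at 13.3 FPKM with siYBX1 and 17.6 FPKM with siNC (-0.38). The interferon-induced DDX60 stood at 2.31 FPKM with siYBX1 and 2.34 FPKM with siNC (-0.01) and its neighbour DDX60L at 2.35 FPKM with siYBX1 and 3.16 FPKM with siNC (-0.31). DDX11, a DNA helicase of sister chromatid cohesion, was at 2.50 FPKM with siYBX1 and 3.42 FPKM with siNC (-0.34). DHX32 stood at 19.4 FPKM with siYBX1 and 12.7 FPKM with siNC (0.58) and DHX40 at 11.5 FPKM with siYBX1 and 8.12 FPKM with siNC (0.46).

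None of the 15 DHX genes passed 2-fold, against 7.2% higher and 5.62% lower among all compared genes, shares that come to about 2 genes in a list of this size. Their differences ran from -0.71 to 0.58 with a median of -0.22. The 33 compared DDX genes ran from -1.39 to 2.0 with a median of -0.11. The extremes of a longer list lie farther apart by number alone, and with 1 library per group the subfamilies could not be compared by a test.

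Length moved with the differences over all genes, so it is given here for the helicases. Their longest coding transcripts had a median of 4152.5 bases, against 3407 bases for all compared genes. Among all compared genes, the median difference was 0.17 in the shortest tertile of transcript length, 0.02 in the middle one and -0.11 in the longest one. Among the helicases it was 0.45 in the shortest tertile (6 genes), -0.34 in the middle one (23 genes) and -0.16 in the longest one (19 genes). With the length trend removed, the family's median was -0.12, and DDX10, with one of the longest transcripts at 6707 bases, no longer reached 2-fold (-0.94). Once the trend in GC content was removed as well, DDX20 was short of the line too (-0.94), which left DDX59 as the only lower member. The trends were taken from the same pair of libraries, and their part in the differences of single genes was not tested.

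**Figure D3:**
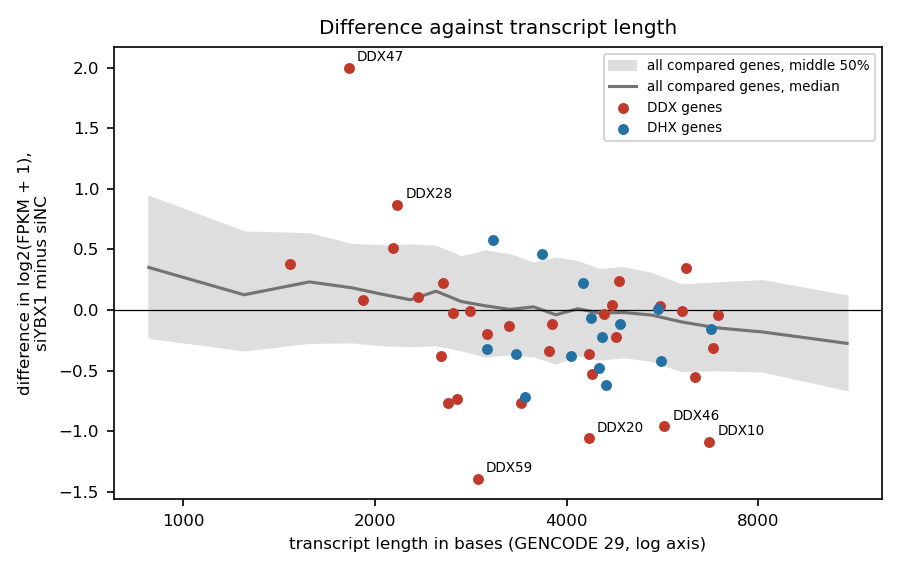
Difference in log2(FPKM + 1), siYBX1 minus siNC, against the length of each gene's longest coding transcript (log axis) for DDX genes (red) and DHX genes (blue). The grey line and band are the median and middle 50% of all compared genes in 20 equal bins. The 6 labelled genes are those farthest from 0. DDX47 and DDX28, the highest, have short transcripts, and DDX10 and DDX46, among the lowest, long ones. DDX59, the lowest of all, has 2900 bases, under the median of 3407 bases for all compared genes, and DDX20 has 4332 bases.

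The lists of other helicases and partners that follow are read against the same background, 7.2% higher and 5.62% lower among all compared genes, of which 48.97% were below 0. Among helicases without a DDX or DHX symbol, 1 of 17 was higher (5.88%) and 0 lower, shares near that background, with a median of 0.13. EIF4A1, the DEAD box helicase of the cap-binding complex eIF4F, was the higher one, at 41.6 FPKM with siYBX1 and 16.5 FPKM with siNC (1.28). Its paralogs EIF4A2 (0.30) and EIF4A3, a core protein of the exon junction complex (-0.34), lay within 2-fold. HELZ, which binds the CCR4-NOT complex, was at 2.48 FPKM with siYBX1 and 5.13 FPKM with siNC (-0.82), DICER1, which cuts microRNA precursors, at 11.3 FPKM with siYBX1 and 18.4 FPKM with siNC (-0.65), and SNRNP200, the U5 helicase Brr2, at 28.5 FPKM with siYBX1 and 45.03 FPKM with siNC (-0.64).

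Among the proteins that work with these helicases, the G-patch list stood lowest. G-patch proteins hold and activate DEAH box helicases such as DHX15 and DHX16. Of 20 genes, 0 were higher and 2 lower (10%), about 1 gene more than the background of 5.62% gives. The list had 16 negative differences, 80% against 48.97% of all compared genes, and a median of -0.41 against 0.02. GPATCH8 stood at 4.92 FPKM with siYBX1 and 17.5 FPKM with siNC (-1.64), and GPATCH1 at 4.26 FPKM with siYBX1 and 10.0 FPKM with siNC (-1.07). The splicing regulator RBM5, at 8.20 FPKM with siYBX1 and 15.96 FPKM with siNC (-0.88), and GPATCH4, at 11.5 FPKM with siYBX1 and 19.97 FPKM with siNC (-0.75), came next without reaching 2-fold.

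**Figure D4:**
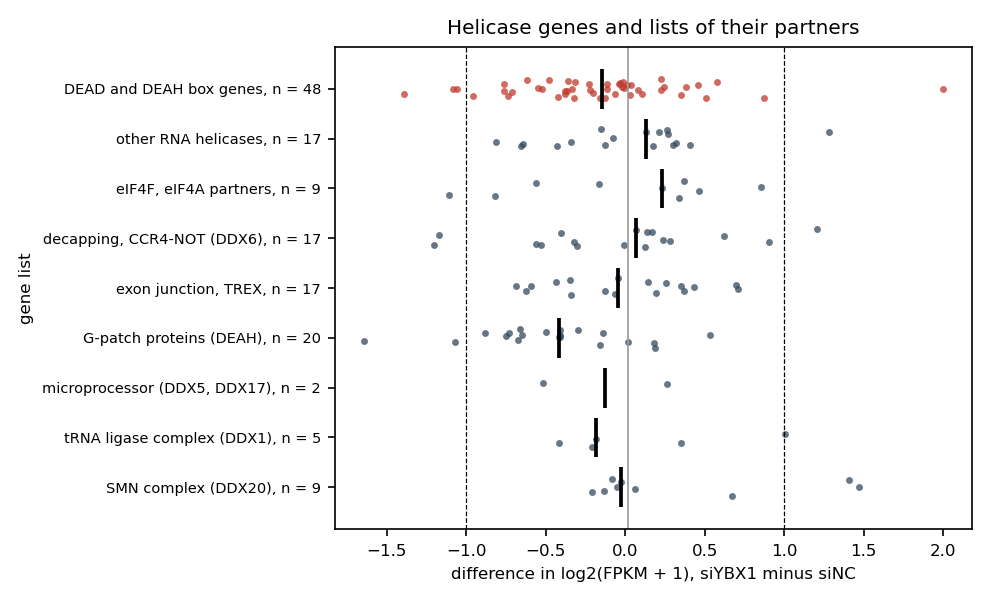
Difference in log2(FPKM + 1), siYBX1 minus siNC, of each helicase gene (red) and of each gene in 8 lists of other helicases and partners (dark points). Black bars are list medians, the grey line is the median of all compared genes and dashed lines mark 2-fold. The G-patch list has the lowest median, -0.41.

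Partners of DDX6 and of eIF4A lay on both sides of the control. In the decapping and CCR4-NOT list, 1 of 17 genes was higher (5.88%, against 7.2%) and 2 lower (11.8%, against 5.62%). The median was 0.07, and its sign changed between settings (-0.12 to 0.20). The decapping enzyme DCP2 was at 5.24 FPKM with siYBX1 and 1.70 FPKM with siNC (1.21), its activator EDC3 at 5.37 FPKM with siYBX1 and 2.40 FPKM with siNC (0.91), both above the control. Of the deadenylase subunits, CNOT3 was at 9.31 FPKM with siYBX1 and 22.7 FPKM with siNC (-1.20) and CNOT9 at 4.99 FPKM with siYBX1 and 12.5 FPKM with siNC (-1.17). Among 9 eIF4F and eIF4A partners the median was 0.23, with 0 higher (against 7.2%) and 1 lower (11.1%, against 5.62%). The lower one was the scaffold EIF4G3, at 10.8 FPKM with siYBX1 and 24.5 FPKM with siNC (-1.11), or -0.98 with the length trend removed. The 4E-binding proteins went opposite ways, with EIF4EBP2 at 33.1 FPKM with siYBX1 and 17.9 FPKM with siNC (0.85) and EIF4EBP1 at 67.9 FPKM with siYBX1 and 121 FPKM with siNC (-0.82). EIF4G1 was at 90.4 FPKM with siYBX1 and 134 FPKM with siNC (-0.56).

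The other complexes differed in their share of called genes. None of 17 exon junction and TREX partners passed 2-fold, against 7.2% higher and 5.62% lower among all compared genes, and the median was -0.05. The largest difference was that of GLE1, the nuclear pore activator of DDX19, at 30.8 FPKM with siYBX1 and 18.4 FPKM with siNC (0.71). Next came the export cofactor NXT1 (0.69), MAGOHB (-0.69) and THOC2 (-0.63). In the SMN complex around DDX20, 2 of 9 genes were higher (22.2%, against 7.2%) and 0 lower (against 5.62%), with a median of -0.02. These 2 were GEMIN7, at 12.0 FPKM with siYBX1 and 3.70 FPKM with siNC (1.47), and STRAP, at 69.9 FPKM with siYBX1 and 25.7 FPKM with siNC (1.41). Both went opposite to DDX20 itself, and with a pseudocount of 5 GEMIN7 was short of 2-fold (0.97). GEMIN2 was at 5.27 FPKM with siYBX1 and 2.93 FPKM with siNC (0.67), and SMN1 (-0.21) and SMN2, near-identical copies, are uncertain one by one. In the tRNA ligase complex of DDX1, 1 of 5 genes was higher (20%, against 7.2%) and 0 lower (against 5.62%). The higher one was the ligase RTCB, at 36.9 FPKM with siYBX1 and 17.9 FPKM with siNC (1.006). Its call was lost under 5 settings, and the other 4 genes lay within 2-fold. The median of the 5 genes was -0.19, and 0.04 with the length and GC trend removed. DROSHA (-0.52) and DGCR8 (0.26), which work with DDX5 and DDX17, lay within 2-fold.

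Most calls depend on the scale. A pseudocount of 5 ends all 3 lower calls. A plain ratio with no pseudocount puts DDX28 beyond 2-fold and DDX46 just short of it, at 1.98-fold lower. DDX59 stayed beyond 2-fold in every setting tried except a pseudocount of 5 (-0.89).

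**Figure D5:**
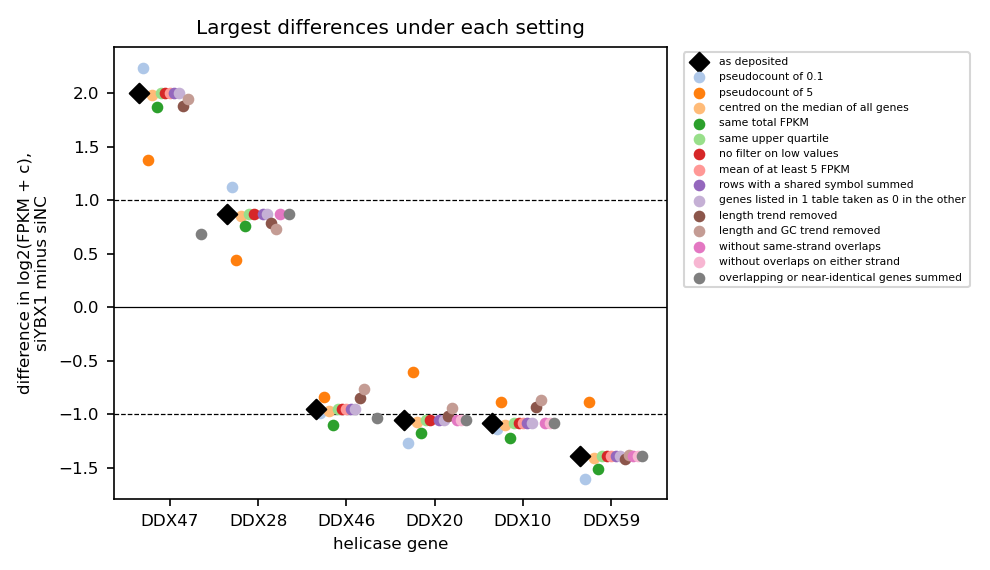
Difference in log2(FPKM + c), siYBX1 minus siNC, of the 6 helicase genes farthest from 0, as deposited with c of 1 (black diamond) and under 14 other settings (coloured points, c of 1 unless named). Dashed lines mark 2-fold. DDX47 drops to 0.68 where it is summed with APOLD1, and a pseudocount of 5 puts DDX20, DDX10 and DDX59 inside the lines.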

How the data were processed

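RNA from 2 samples of a human breast line was compared, 1 library per group, grouped by the treatment given in the labels. Each library came as a deposited table of identifiers, symbols and FPKM values computed by the authors. Per the submitters' processing notes, StringTie 1.3.3, HISAT2 2.1.0 and cutadapt 1.17 were used with build GRCh37, in roles the notes leave unsaid. Annotation release and strand handling were not given in the sources used here, so reads of a gene and of one on the other strand cannot be told apart: 14 of 49 members overlap a listed gene on the other strand and 5 on the same strand.

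Differences in log2(FPKM + 1) were computed with Python 3.11.15 and pandas 2.3.3 for genes in both tables with a mean of at least 1 FPKM. On this scale low genes show smaller differences than their ratio. No test was possible. The code for the difference and the trend removal was checked on simulated data with chosen noise and folds. The simulated trend had no noise of its own and followed the same length that was then fitted. That check therefore gives no measure of the precision of these libraries. Transcript lengths, GC content and overlaps came from GENCODE 29 on GRCh38, promoters from RefSeq on GRCh38.p14, matched by symbol for 45 members. Length was that of the longest protein-coding transcript. Trends were fitted by least squares on cubic splines with 4 knots (scikit-learn 1.9.0).

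The members, role groups and partner lists were chosen with earlier results of these data known. Values are given for every member. In the partner lists up to 4 genes with the largest differences are named, and others named there were chosen after their values were seen. Alternatives covered the pseudocount, scaling, filters, shared symbols, genes in 1 table, length and overlaps.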

Additional observations from a re-analysis of the deposited data

How the results depend on the processing

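No paired analysis was possible because each group had 1 library, and no replicate could be left out. The count of 1 higher helicase gene became 2 with a pseudocount of 0.1, where DDX28 passed 2-fold (1.13), and 0 without same-strand overlaps, 0 without overlaps on either strand and 0 with overlapping or near-identical genes summed, because DDX47 then left or stood at 0.68. The count of 3 lower genes became 0 with a pseudocount of 5, which shrinks every difference (DDX59 -0.89, DDX10 -0.89, DDX20 -0.61), and 1 with the length and GC trend removed. The family's median of -0.14 became -0.28 at the same total FPKM. DDX46 passed 2-fold there (-1.10) and when summed with C5orf24. Over all compared genes, 1097 were higher and 925 lower with a pseudocount of 0.1, and 314 and 209 with one of 5, against 759 and 593. No helicase or partner gene beyond 2-fold changed sign, but RTCB lost its call in 5 settings (0.86 at the same total) and EIF4G3 in 3 (-0.90 with a pseudocount of 5). That pseudocount also ended the calls of GPATCH1, CNOT3, CNOT9, DCP2 and GEMIN7. The G-patch median ran from -0.57 to -0.36 over 12 alternatives, that of the spliceosomal DEAH box genes from -0.48 to -0.29 over 13, that of the DEAD box genes from -0.50 to -0.13 over 14 and that of the small subunit genes from -0.55 to -0.13 over 14. The median of the tRNA ligase list ran from -0.32 to 0.04, that of the SMN list from -0.12 to 0.01 and that of the nuclear ribonucleoprotein helicases from -0.15 to 0.11, so their signs are not stable. The alternatives on overlaps, summed pairs and GC content were chosen after seeing the data. Depth is unknown, so differences of genes under a few FPKM, such as DDX20 and DDX28, have no stated precision.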

Other observations

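Among the helicase genes with a RefSeq promoter, the 19 whose window holds CCAAT had a median difference of -0.31, and the 25 without it had a median of -0.03. Over the 8366 compared genes with a RefSeq promoter the same split gave 0.03 with CCAAT (2985 genes) and 0.00 without it (5381 genes). The split was looked at after the values were seen, and no test was made.

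In 7 pairs of related helicases the ratio of levels differed between the libraries to unequal extents. DDX5 was 2.74 times DDX17 with siYBX1 and 1.99 times with siNC. DDX21 was 4.19 times DDX50 with siYBX1 and 2.70 times with siNC. DDX39A over DDX39B gave 1.201 with siYBX1 and 1.32 with siNC. In a further 2 pairs the order turned. DDX19A over DDX19B was 1.23 with siYBX1 and 0.776 with siNC, though reads of this near-identical pair can be exchanged, and DHX8 over DHX38 was 1.04 with siYBX1 and 0.647 with siNC. DDX60 over DDX60L was 0.986 with siYBX1 and 0.740 with siNC, and DHX36 over DHX57 was 0.952 with siYBX1 and 0.986 with siNC.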
